A study of Mus musculus with 60 samples.

Results

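Genes listed for vitamin B6 salvage and transport were followed in 3 brain regions of mice whose diet had almost no vitamin B6. They were chosen by symbol: Pdxk, Pdxp, Alpl, Plpbp (written Prosc in the deposited tables, the older name of the same gene), Slc19a2 and Slc19a3. Of these 6 genes, 5 had a row among the 21999 genes of the tables, and Pdxp is not analysed here. All 5 passed the filter on low counts in each of the 3 regions, so every gene with a row was tested in every comparison.

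Vitamin B6 is taken up as several related compounds, and its working form in cells is pyridoxal 5'-phosphate, the cofactor of many enzymes of amino acid and neurotransmitter metabolism, among them the decarboxylases that make GABA, dopamine and serotonin. Pyridoxal kinase, encoded by Pdxk, adds the phosphate inside the cell. Alpl encodes tissue-nonspecific alkaline phosphatase, an enzyme on the outer cell surface that removes the phosphate so that pyridoxal can enter. Plpbp encodes a protein that binds pyridoxal 5'-phosphate and is known for its part in keeping the free cofactor in balance. Slc19a2 and Slc19a3 encode thiamine (vitamin B1) transporters, and their human counterparts have also been described as carriers of pyridoxine, another form of vitamin B6. Whether the mouse proteins carry pyridoxine was not tested here.

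Wild-type mice (WT) and Glo1 knockout mice (KO), which lack the methylglyoxal-detoxifying enzyme glyoxalase 1, were given 1 of 2 diets when they were 8 to 12 weeks old. The normal diet held 1.4 mg of vitamin B6 per 100 g of pellets and the lacking diet 5 µg per 100 g. Each of the 4 combinations of genotype and diet had 5 mice, and each of the 20 mice gave a library from the prefrontal cortex, the striatum and the hippocampus, 60 libraries in all. The labels gave neither how the Glo1 allele was made nor the strain or sex, and they put every KO library in batch 1 and every WT library in batch 2, so that genotype and batch cannot be told apart. The diets were compared within a genotype and therefore within a batch.

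The libraries held 7640047 to 13928265 counts, and their RNA integrity numbers (RIN) lay between 7.6 and 9.3. Vitamin B6, in a material that the labels do not name, was 58.25 to 77.48 ng/µl in WT mice on the normal diet, 60.09 to 78.09 ng/µl in KO mice on the normal diet, 3.02 to 4.86 ng/µl in WT mice on the lacking diet and 2.25 to 5.63 ng/µl in KO mice on the lacking diet. Glo1 had 299 to 734 counts in the 30 WT libraries and 0 to 10 in the 30 KO libraries. The summed level of 6 markers of striatal medium spiny neurons was 1437 to 1786 RPKM (reads per kilobase of gene per unit of library total) in the striatum, 30.6 to 40.9 in the prefrontal cortex and 10.02 to 19.6 in the hippocampus. For 5 markers of hippocampal neurons the sum was 98.3 to 118.6 RPKM in the hippocampus and at most 47.5 in the other two regions. For 4 markers of cortical excitatory neurons the sum overlapped between prefrontal cortex (337.4 to 410.4 RPKM) and hippocampus (369.6 to 431.8). In the striatum the sum of these 4 markers ran from 13.5 to 84.7 RPKM. For 6 markers of the choroid plexus it varied widely among the hippocampal libraries of every group: 13.7 to 873.9 RPKM in WT mice on the normal diet, 20.4 to 1032 in WT mice on the lacking diet, 20.7 to 1257 in KO mice on the normal diet and 5.52 to 299.6 in KO mice on the lacking diet.

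In the annotation (GENCODE M21, build GRCm38, the build called mm10) Pdxk lies on the minus strand of chromosome 10, from 78436744 to 78464975. Of the 75-base stretches of its exons, 38.2% also occur in the exons of other genes, because the antisense gene 4921516A02Rik overlaps 2104 of its exon bases. That antisense gene has no row in the tables, and the strand setting of the counting is not given in the sources used here, so reads of the pair cannot be told apart. Alpl lies on the minus strand of chromosome 4, from 137741733 to 137796384, Slc19a2 on the plus strand of chromosome 1, from 164249046 to 164265385, and Slc19a3 on the minus strand of chromosome 1, from 83012523 to 83038448. None of the 75-base stretches of these 3 genes occurs elsewhere in the annotated exons (0%). Prosc lies on the plus strand of chromosome 8, from 27042555 to 27056132, and 2.21% of its stretches occur in other genes. The gene Proscos overlaps 400 of its exon bases and also has no row in the tables. The share of Prosc reads that come from Proscos was not tested.

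Pdxk was the most abundant of the 5 genes in every library. Over the 60 libraries its median level was 23.9 RPKM (range 14.7 to 39.6), against 4.68 for Prosc (3.72 to 6.17), 3.34 for Slc19a2 (1.74 to 5.35), 1.74 for Slc19a3 (1.12 to 2.68) and 1.52 for Alpl (0.910 to 2.46). The order of the lower genes depends on the gene length used. The deposited RPKM of Prosc rest on a length of 12648 bases, the sum of all its annotated exons, whereas its longest coding transcript has 5767 bases and would give a median of 10.3 RPKM. In the same way Alpl, with 4033 bases in the deposited values and 2522 in its longest coding transcript, would have a median of 2.43 RPKM, above the 1.79 RPKM of Slc19a3. These are different numbers of reads as well: a library held 696 to 2629 counts of Pdxk, 411 to 958 of Prosc, 69 to 245 of Slc19a2, 36 to 136 of Alpl and 32 to 110 of Slc19a3.

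**Figure D1:**
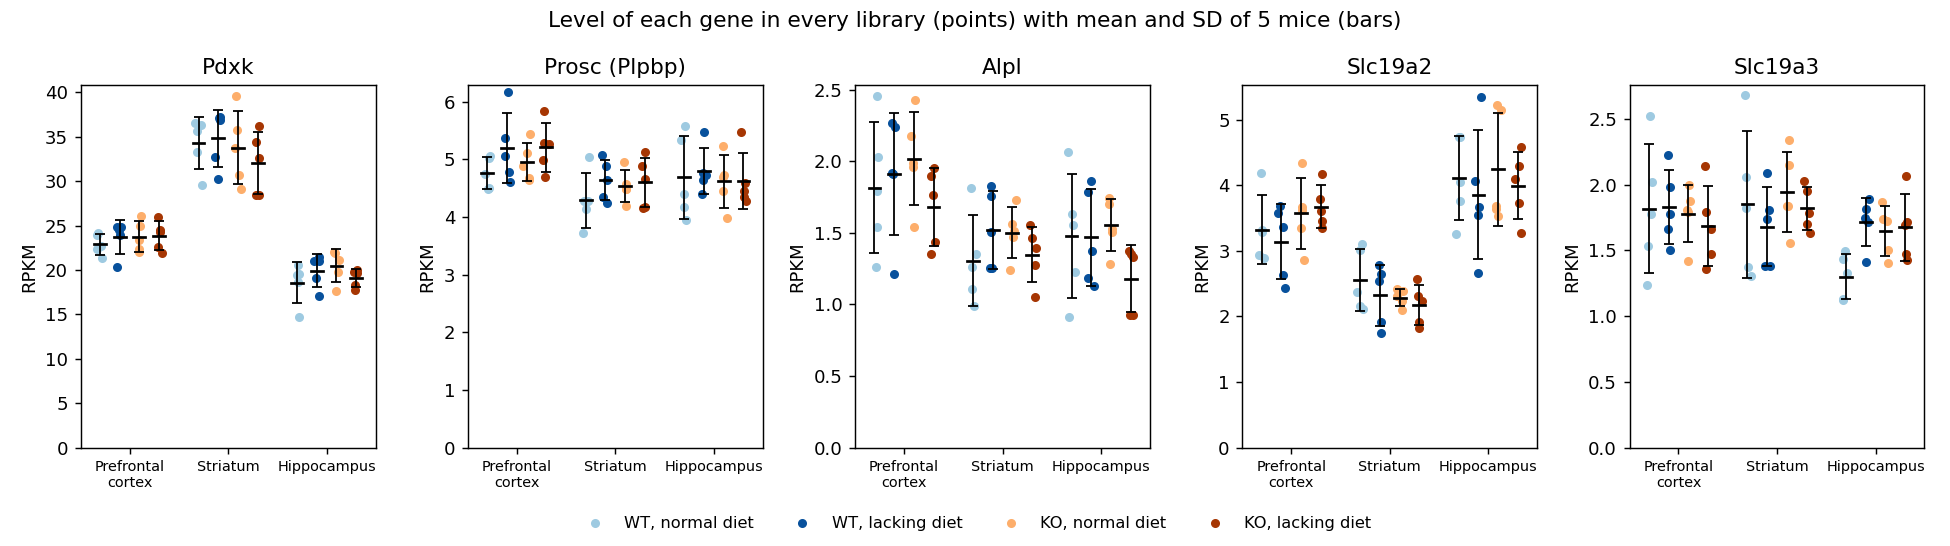
RPKM of the 5 genes (1 panel each, vertical axis from 0) in the prefrontal cortex, striatum and hippocampus. Points are libraries, coloured by genotype and diet, and black bars are the mean and SD of 5 mice; the 4 groups overlap within every region, while Pdxk and Slc19a2 shift between regions.

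The first question was whether these genes responded to the lacking diet. None of the 5 passed the threshold, a Benjamini-Hochberg adjusted p under 0.05 in edgeR's quasi-likelihood test, in any region, in WT or in KO mice. The background was the same: in either genotype 0% of the 13393 genes tested in the hippocampus passed, 0% of 13311 in the striatum and 0% of 13223 in the prefrontal cortex, and DESeq2 and limma also called 0 genes. In all 30 pairings of gene, genotype and region the ranges of the 2 diets overlapped. At an unadjusted p under 0.05 there was 1 of these 30, Slc19a3 in the hippocampus of WT mice. Among all genes, the share with an unadjusted p under 0.05 was 4.03% (hippocampus), 2.91% (striatum) and 2.27% (prefrontal cortex) in WT mice and 6.56%, 1.68% and 5.19% in KO mice.

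**Figure D2:**
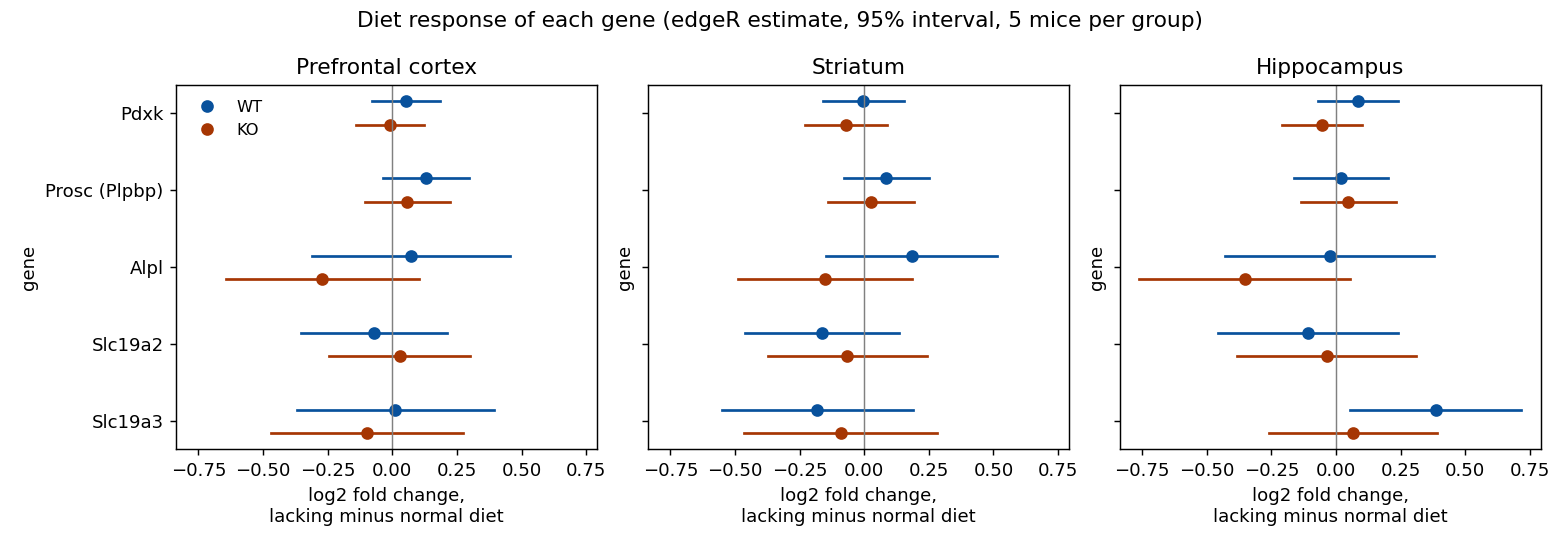
Diet response of the 5 genes in each region. Points are edgeR log2 fold changes of the lacking against the normal diet (horizontal axis, 0 marked), lines their 95% intervals, blue for WT and brown for KO mice (5 mice per group); only the interval of Slc19a3 in the WT hippocampus, 0.05 to 0.72, lies clear of 0.

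Pdxk, whose product makes the active cofactor, had the narrowest intervals. In the prefrontal cortex its level in WT mice was 21.3, 22.4, 22.7, 24.0 and 24.1 RPKM on the normal diet and 20.4, 23.9, 24.5, 24.8 and 24.9 RPKM on the lacking diet. In KO mice it was 21.98, 22.4, 23.3, 24.999 and 26.1 RPKM on the normal diet and 21.9, 22.5, 24.3, 24.5 and 26.0 RPKM on the lacking diet. The diets overlapped in both genotypes: of the 5 WT mice on the lacking diet 3 stood just above all WT mice on the normal diet and 1, at 20.4 RPKM, below them. Fold changes are given on the log2 scale, lacking against normal diet; that of Pdxk here was 0.05 in WT mice (SE 0.0645, 95% interval -0.08 to 0.19) and -0.01 in KO mice (SE 0.0640, interval -0.14 to 0.12).

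In the striatum, Pdxk in WT mice was at 29.5, 33.3, 35.7, 36.3 and 36.6 RPKM on the normal diet and at 30.2, 32.7, 36.9, 37.1 and 37.2 RPKM on the lacking diet. KO mice had 29.1, 30.7, 33.7, 35.8 and 39.6 RPKM on the normal diet and 28.5, 28.5, 32.7, 34.4 and 36.3 RPKM on the lacking diet. The highest 3 WT mice on the lacking diet stood just above all WT mice on the normal diet, but the others lay within their range, and in KO mice 2 mice on the lacking diet fell just below it. On the log2 scale this was 0.00 in WT mice (SE 0.0763, 95% interval -0.16 to 0.15) and -0.07 in KO mice (SE 0.0765, interval -0.23 to 0.09).

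The hippocampus had the lowest Pdxk levels. WT mice were at 14.7, 18.7, 19.4, 19.5 and 20.6 RPKM on the normal diet and at 17.1, 19.1, 21.0, 21.0 and 21.5 RPKM on the lacking diet, and KO mice at 17.6, 19.7, 21.2, 21.9 and 22.004 RPKM and at 17.8, 18.3, 19.6, 19.8 and 20.03 RPKM. In WT mice 3 of 5 animals on the lacking diet exceeded every animal on the normal diet, and in KO mice none did. For Pdxk the difference was 0.09 in WT mice (log2, 95% interval -0.07 to 0.24) and -0.05 in KO mice (interval -0.21 to 0.10). Averaged over the genotypes, a contrast added after these values were seen, it was 0.02 in the hippocampus (interval -0.09 to 0.13), -0.04 in the striatum (-0.15 to 0.08) and 0.02 in the prefrontal cortex (-0.07 to 0.12).

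Alpl, the surface phosphatase, had a lower mean on the lacking diet in all 3 regions of KO mice, without passing the test in any. In the hippocampus of KO mice its level was 1.28, 1.51, 1.53, 1.70 and 1.74 RPKM on the normal diet and 0.922, 0.926, 1.33, 1.35 and 1.37 RPKM on the lacking diet. Only 1 of the 5 mice on the normal diet, at 1.28 RPKM, lay within the range of the mice on the lacking diet, and 2 mice on the lacking diet lay below all others. On the log2 scale the difference was -0.35 (SE 0.198, 95% interval -0.76 to 0.05; edgeR adjusted p = 0.719). In these groups, counts of Alpl ran from 47 to 72 on the normal diet and from 40 to 75 on the lacking diet. The summed level of 5 markers of meningeal fibroblasts, a list whose mean had an r of 0.49 with Alpl over all libraries, was 54.7 to 118.6 RPKM there on the normal diet and 53.8 to 90.9 on the lacking diet. The 6 choroid plexus markers, whose mean had an r of 0.36 with Alpl, stood farthest apart between these groups by the median fold change, with sums of 20.7 to 1257 RPKM (median 22.1) on the normal and 5.52 to 299.6 RPKM (median 29.0) on the lacking diet and a median log2 fold change of -1.73. The median log2 fold change was -0.24 for the meningeal markers. It was -0.25 for the 5 microglial markers, whose mean had an r of 0.13 with Alpl and whose sums were 72.3 to 83.4 RPKM on the normal and 74.8 to 83.1 on the lacking diet. The pericyte markers, with an r of 0.48, had a median of -0.10 and sums of 77.5 to 92.8 and 73.8 to 82.7 RPKM. The 10 endothelial markers, with an r of 0.20, had a median of -0.06. Their sums were 76.8 to 94.9 RPKM on the normal and 77.3 to 81.5 RPKM on the lacking diet. The 5 neuronal markers, with an r of 0.24, went the other way, with a median of 0.13. Their sums were 1039 to 1155 RPKM on the normal and 1052 to 1193 RPKM on the lacking diet. The 5 astrocyte markers, with an r of 0.30, had sums of 428.4 to 478.7 and 448.2 to 482.5 RPKM. No marker of these lists passed the test, and the part of the cell types in the difference of Alpl was not tested.

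In the prefrontal cortex of KO mice Alpl was at 1.54, 1.96, 1.99, 2.17 and 2.42 RPKM on the normal diet and at 1.35, 1.44, 1.76, 1.90 and 1.95 RPKM on the lacking diet. In the striatum of KO mice it was at 1.24, 1.47, 1.51, 1.56 and 1.73 RPKM and at 1.05, 1.27, 1.39, 1.46 and 1.56 RPKM. The 2 diets overlapped in both regions. The log2 fold changes were -0.27 in the prefrontal cortex (95% interval -0.64 to 0.10) and -0.15 in the striatum (interval -0.49 to 0.18).

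In WT mice the Alpl means were not lower throughout. Their values in the prefrontal cortex were 1.26, 1.54, 1.79, 2.03 and 2.46 RPKM on the normal diet and 1.21, 1.91, 1.92, 2.24 and 2.27 RPKM on the lacking diet. The log2 fold changes of WT mice were -0.02 in the hippocampus (95% interval -0.43 to 0.38), 0.18 in the striatum (-0.15 to 0.52) and 0.07 in the prefrontal cortex (-0.31 to 0.46). Whether the genotypes responded differently was tested by the interaction, the response in KO minus that in WT mice, which for Alpl was -0.33 in the hippocampus (SE 0.279; edgeR, adjusted p = 0.662), with -0.34 both in the striatum (SE 0.229) and in the prefrontal cortex (SE 0.261), where the adjusted p was 1.00.

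Since the 3 regions of a mouse come from 1 animal, Alpl was also compared by the mean of each mouse over its 3 libraries, an analysis added after the values by region were seen. On the log2 CPM scale the mean of the KO mice was 2.78 (SD 0.160, n = 5) on the normal diet and 2.53 (SD 0.0928, n = 5) on the lacking diet. The difference was -0.25 (two-sided exact permutation test, p = 0.0397, and 0.521 after Benjamini-Hochberg adjustment over the 15 such tests on the 5 genes), so it did not pass. It was 0.09 in WT mice (exact p = 0.579, adjusted 0.724). The difference between these responses was -0.34 (exact permutation within genotypes, p = 0.0695, adjusted 0.521). For the other four genes the differences by mouse lay between -0.12 and 0.10 within a genotype and the differences between the responses between -0.13 and 0.11, with exact p of 0.174 to 0.810 before adjustment. Without the libraries of any 1 region the difference in KO mice remained between -0.30 and -0.21.

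Prosc, the cofactor-binding protein, had the same small spread between mice as Pdxk. Its mean RPKM was higher on the lacking diet in all 6 pairings of genotype and region, without passing the test. The regions of a genotype come from the same mice, so these pairings are not independent. In the hippocampus of KO mice the means were nearly equal, at 4.623 RPKM on the lacking and 4.617 RPKM on the normal diet. The medians there went the other way, at 4.45 RPKM on the lacking and 4.68 RPKM on the normal diet. The widest gap was in the prefrontal cortex of WT mice, with 4.49, 4.51, 4.74, 5.03 and 5.05 RPKM on the normal diet and 4.61, 4.78, 5.06, 5.37 and 6.17 RPKM on the lacking diet. There 3 of 5 mice on the lacking diet stood above all mice on the normal diet. This came to a log2 fold change of 0.13 (SE 0.0815, 95% interval -0.04 to 0.30; edgeR adjusted p = 1.00). The other five fold changes lay between 0.02 and 0.09, and 2 of them changed sign under an alternative fit, while in the hippocampus of KO mice 1 mouse on the lacking diet, at 5.46 RPKM, was apart from the other four at 4.27 to 4.59 RPKM.

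Slc19a2, the first thiamine transporter, had lower means on the lacking diet in 5 of the 6 pairings, all within the spread between mice. The exception was the prefrontal cortex of KO mice, with 3.57 ± 0.541 RPKM on the normal diet and 3.67 ± 0.325 RPKM on the lacking diet (SD, n = 5 each). In the striatum, where its fold change in WT mice was farthest from 0, it was at 2.12, 2.16, 2.38, 3.01 and 3.10 RPKM on the normal diet and at 1.74, 1.92, 2.54, 2.65 and 2.78 RPKM on the lacking diet. The 2 diets overlapped, with 2 mice on the lacking diet below and none above all mice on the normal diet. Its log2 fold change there was -0.16 (SE 0.145, 95% interval -0.46 to 0.14), and over all 6 pairings the fold changes lay between -0.16 and 0.03.

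Slc19a3, the second thiamine transporter, gave the smallest p of the diet comparisons. In the hippocampus of WT mice it was at 1.12, 1.13, 1.32, 1.43 and 1.497 RPKM on the normal diet and at 1.41, 1.72, 1.74, 1.82 and 1.89 RPKM on the lacking diet. Of the 5 mice on the lacking diet, 4 lay above all mice on the normal diet, and the remaining mouse, at 1.41 RPKM, lay within their range. The means were 1.30 ± 0.172 and 1.72 ± 0.182 RPKM (SD, n = 5 each), from 32 to 48 counts and from 44 to 66 counts per library.

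The log2 fold change of Slc19a3 there was 0.39 (SE 0.161, 95% interval 0.05 to 0.72), a ratio of 1.31, with an adjusted p of 0.965 in edgeR. A two-sided exact permutation test of log2 CPM gave p = 0.0238, the smallest of 30 such tests on the 5 genes, and 0.714 after Benjamini-Hochberg adjustment over the 30. Over the alternative fits across all genes adjusted p stayed between 0.785 and 0.998, and with each mouse left out in turn between 0.472 and 1.00. In the same libraries RIN was 8.3 to 8.9 on the normal and 8.3 to 9.0 on the lacking diet. The summed level of 10 endothelial markers was 76.8 to 88.3 and 76.1 to 91.4 RPKM. That of 8 pericyte markers was 68.8 to 93.0 and 76.8 to 84.3 RPKM. For 5 microglial markers it was 73.6 to 91.6 (median 76.9) and 76.8 to 94.3 RPKM (median 83.6). Over all libraries the microglial mean had an r of -0.39 with Slc19a3. The part of RNA quality or of the cell types in the difference of Slc19a3 was not tested.

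In KO mice the 2 diets overlapped in Slc19a3. These mice had 1.41, 1.51, 1.72, 1.74 and 1.87 RPKM in the hippocampus on the normal diet and 1.43, 1.47, 1.70, 1.72 and 2.06 RPKM on the lacking diet, a log2 fold change of 0.07 (95% interval -0.26 to 0.39). The WT mice on the normal diet were therefore the low group of the 4, and the other three had means of 1.65 to 1.72 RPKM. The interaction was -0.32 (SE 0.225, interval -0.78 to 0.14; edgeR adjusted p = 0.602).

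Elsewhere in WT mice, Slc19a3 was at 1.24, 1.53, 1.78, 2.02 and 2.53 RPKM in the prefrontal cortex on the normal diet and at 1.51, 1.66, 1.77, 1.99 and 2.23 RPKM on the lacking diet. In the striatum of WT mice it was at 1.31, 1.38, 1.82, 2.06 and 2.68 RPKM and at 1.38, 1.38, 1.74, 1.81 and 2.09 RPKM. In both regions the mice on the lacking diet lay entirely within the range of those on the normal diet. The log2 fold changes were 0.01 (95% interval -0.37 to 0.39) and -0.18 (interval -0.55 to 0.19). In a fit of all 60 libraries, the response of Slc19a3 in the WT hippocampus minus that in the WT striatum was 0.58 (SE 0.241, adjusted p = 1.00 in edgeR). For WT and KO mice and each of the 3 pairs of regions, this test of a different diet response passed for 0% of 13930 genes and for none of the 5, and only Slc19a3 in this pair of regions was under 0.05 without adjustment.

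The genotype-by-diet interaction passed for none of the 5 genes in any region, against a background of 0% in each. Their interaction terms lay between -0.33 and 0.07 in the hippocampus, between -0.34 and 0.10 in the striatum and between -0.34 and 0.10 in the prefrontal cortex. The diet response averaged over genotypes also passed for none of them (background 0% in each region). Its value farthest from 0 was that of Slc19a3 in the hippocampus, 0.23 (95% interval -0.01 to 0.46; edgeR adjusted p = 0.999).

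Related genes were described from lists. Of 6 other thiamine handling genes 5 were tested, and 0 passed in the diet and interaction comparisons of any region, where 0% of all genes passed. Of 47 enzymes that use pyridoxal 5'-phosphate, 38 were tested in hippocampus and striatum and 36 in prefrontal cortex, and 0 passed in these comparisons, again beside 0% of all genes. The medians of this last list lay between -0.08 and 0.04 over all comparisons that involve the diet, beside medians of all genes between -0.01 and 0.02.

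KO mice were compared with WT mice over both diets, a comparison in which genotype and batch cannot be told apart. None of the 5 genes passed in any region, where 0.164% of all genes passed in the hippocampus, 0.203% in the striatum and 0.673% in the prefrontal cortex (edgeR). None had an unadjusted p under 0.05, and DESeq2 and limma called none of the 5 either. For Pdxk the log2 fold change was 0.05 in the hippocampus (95% interval -0.06 to 0.15), -0.03 in the striatum (-0.14 to 0.08) and 0.01 in the prefrontal cortex (-0.08 to 0.10). The values farthest from 0 were those of Slc19a3 in the hippocampus, 0.15 (interval -0.08 to 0.38), and of Slc19a2 in the prefrontal cortex, 0.15 (interval -0.05 to 0.34).

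Of the related genes, 0 of the 5 thiamine handling genes passed between KO and WT mice in any region. Of the enzymes that use pyridoxal 5'-phosphate, 0 of 38 passed in the hippocampus and in the striatum and 1 of 36 in the prefrontal cortex, beside the 0.673% of all genes there. It was Etnppl, which encodes an enzyme that breaks down phosphoethanolamine and is named here after its values were seen. Its level in the prefrontal cortex was 3.19 to 7.81 RPKM in WT mice (median 4.28) and 2.27 to 4.25 RPKM in KO mice (median 2.998), so that the genotypes overlapped. The log2 fold change was -0.61 (SE 0.135; edgeR adjusted p = 0.0246). The call was lost in limma (adjusted p = 0.0992 on log2(RPKM + 1) and 0.102 on log2(RPKM + 0.1)) and when mouse 225, 246, 259, 317, 339, 368 or 381 was left out, with adjusted p from 0.00739 to 0.0700 over the 20 mice left out in turn. In the same comparison the 5 astrocyte markers had a median log2 fold change of -0.17, and 1 passed as lower. On the normal and lacking diet their sums had medians of 350.2 and 357.4 RPKM in WT mice. In KO mice these were 295.2 and 298.7 RPKM. The 5 neuronal and 5 meningeal markers had median fold changes of -0.11 and -0.36, and 0 of them passed. The 7 pericyte and 10 endothelial markers tested had medians of -0.13 and -0.09, and 0 of them passed. On the normal and lacking diet, microglial sums had medians of 89.5 and 93.2 RPKM in WT mice and 80.6 and 75.2 in KO mice. Oligodendrocyte sums had medians of 356.0 and 351.7 RPKM in WT mice and 361.9 and 329.9 in KO mice. The part of cell content in the difference of Etnppl was not tested.

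Between regions most of the 5 genes passed the threshold. Of the 5, 4 passed between striatum and prefrontal cortex, 5 between hippocampus and prefrontal cortex and 3 between hippocampus and striatum, in an edgeR fit of all 60 libraries averaged over genotype and diet. The background was high, since 69.9%, 59.3% and 66.4% of the 13930 genes passed in these comparisons. A share of 3 to 5 out of 5 is near that background. Each gene had its own order of regions. In whole tissue a gene can differ because a cell type is less frequent or because its cells hold less of the RNA, and these cannot be told apart.

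**Figure D3:**
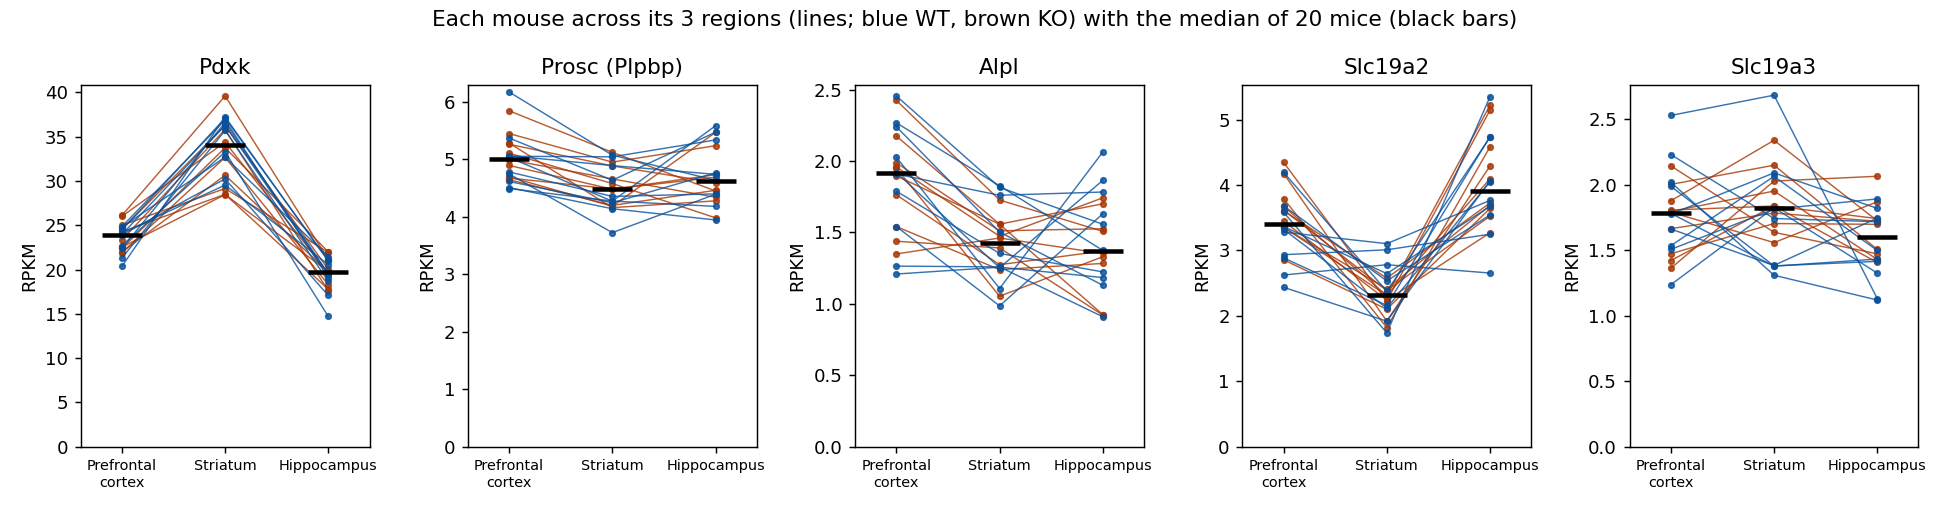
RPKM of the 5 genes (1 panel each, vertical axis from 0) in the 3 regions of each of the 20 mice, joined by a line per mouse (blue WT, brown KO), with black bars at the medians. In every mouse Pdxk peaks in the striatum, and Slc19a2 is lowest there in most mice.

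Pdxk was highest in the striatum in all 20 mice. Its lowest, median and highest levels were 28.5, 34.1 and 39.6 RPKM in the striatum, 20.4, 23.9 and 26.1 RPKM in the prefrontal cortex and 14.7, 19.7 and 22.004 RPKM in the hippocampus. The striatal range did not overlap with either of the others, and 19 of 20 mice had more Pdxk in the prefrontal cortex than in the hippocampus. In log2 terms the difference was 0.54 between striatum and prefrontal cortex (SE 0.0337, edgeR adjusted p = 6.80e-22), -0.33 between hippocampus and prefrontal cortex (SE 0.0339, adjusted p = 6.73e-13) and -0.87 between hippocampus and striatum (SE 0.0339, adjusted p = 8.69e-32). The share of Pdxk reads that come from the overlapping antisense gene was not tested.

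Slc19a2 had the opposite order, with the striatum lowest. Its lowest, median and highest levels were 1.74, 2.31 and 3.10 RPKM in the striatum, 2.44, 3.41 and 4.35 RPKM in the prefrontal cortex and 2.66, 3.91 and 5.35 RPKM in the hippocampus. It was lower in the striatum than in the prefrontal cortex in 18 of 20 mice and lower than in the hippocampus in 19 of 20. Its fold change (log2) was -0.53 between striatum and prefrontal cortex (SE 0.0792, edgeR adjusted p = 2.82e-08) and 0.72 between hippocampus and striatum (SE 0.0786, adjusted p = 4.63e-12). Between hippocampus and prefrontal cortex it was 0.18 (SE 0.0764, adjusted p = 0.0329), with 17 of 20 mice higher in the hippocampus. That last call was lost when any 1 of 6 mice was left out (225, 226, 267, 286, 325 or 339), and over the 20 mice left out in turn its adjusted p ran from 0.0165 to 0.0865.

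Alpl was highest in the prefrontal cortex. Its lowest, median and highest levels were 1.21, 1.91 and 2.46 RPKM there, 0.986, 1.43 and 1.83 RPKM in the striatum and 0.910, 1.37 and 2.06 RPKM in the hippocampus. The prefrontal cortex was above the striatum in 18 of 20 mice and above the hippocampus in 17 of 20, while striatum and hippocampus were evenly split, with 10 mice higher in each. For Alpl the fold change (log2) was -0.36 between striatum and prefrontal cortex (edgeR adjusted p = 0.000322) and -0.45 between hippocampus and prefrontal cortex (adjusted p = 1.79e-05). The last 2 regions in the order did not differ beyond their spread (-0.09, 95% interval -0.27 to 0.10).

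Prosc varied least between regions. Its medians were 5.01 RPKM in the prefrontal cortex, 4.61 in the hippocampus and 4.48 in the striatum, and the ranges of the 3 regions overlapped. Even so, all 20 mice had more Prosc RPKM in the prefrontal cortex than in the striatum, a log2 fold change of -0.13 for striatum against prefrontal cortex (SE 0.0404, edgeR adjusted p = 0.00293). Hippocampus against prefrontal cortex gave -0.16 (SE 0.0404, adjusted p = 0.000389), with 14 of 20 mice lower in the hippocampus, and hippocampus against striatum gave -0.03 (95% interval -0.11 to 0.05), which did not pass.

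Slc19a3 was lowest in the hippocampus. Its lowest, median and highest levels were 1.12, 1.60 and 2.06 RPKM there, 1.24, 1.78 and 2.53 RPKM in the prefrontal cortex and 1.31, 1.82 and 2.68 RPKM in the striatum. The log2 fold change was -0.29 between hippocampus and striatum (SE 0.0849, edgeR adjusted p = 0.00207), with 14 of 20 mice lower in the hippocampus. It was -0.23 between hippocampus and prefrontal cortex (SE 0.0850, adjusted p = 0.0152), with 12 of 20 mice lower, and this call was lost on library totals without TMM factors (-0.17, adjusted p = 0.0652) and in limma on log2(RPKM + 1) (-0.10, adjusted p = 0.0765). Striatum and prefrontal cortex did not differ beyond their spread (0.06, 95% interval -0.11 to 0.23). The low WT mice on the normal diet described above are among the hippocampal libraries here. The 2 thiamine transporters thus had different orders: hippocampus, prefrontal cortex, striatum for Slc19a2 and striatum, prefrontal cortex, hippocampus for Slc19a3, from high to low by median.

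Of the 5 other thiamine handling genes tested, 2 passed in each pair of regions, 1 higher and 1 lower, a share below the background. Slc35f3, which encodes a putative thiamine transporter, had the smallest p in each pair, with log2 fold changes of 0.73 for striatum against prefrontal cortex, 0.30 for hippocampus against prefrontal cortex and -0.43 for hippocampus against striatum. Enzymes that depend on the cofactor passed between regions as well, at shares below or near the background. Of 38 enzymes that use pyridoxal 5'-phosphate, 14 were higher and 10 lower in the striatum than in the prefrontal cortex, and the 3 with the smallest p were the GABA-synthesising decarboxylases Gad2 (1.75) and Gad1 (1.24) and the GABA-degrading transaminase Abat (1.27). In the hippocampus against the prefrontal cortex 17 were higher and 5 lower, and the 3 with the smallest p were Pygb (0.60), the brain form of glycogen phosphorylase, Shmt1 (1.90), which makes glycine from serine, and Gldc (0.63), which breaks glycine down. In the hippocampus against the striatum 11 were higher and 11 lower, with -1.78 for Gad2, -1.20 for Abat and -1.06 for Gad1.

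The genes also differed in how much they varied between mice of the same group. The coefficient of variation of RPKM within a group had a median over the 12 groups of 8.83% for Pdxk and 8.80% for Prosc, against 18.8% for Alpl, 15.7% for Slc19a2 and 15.3% for Slc19a3. Counting alone gives 2.76%, 3.96%, 12.6%, 8.38% and 13.0% at these read numbers. The spread of Slc19a3 was thus close to its counting error, that of Pdxk was far above it, and the intervals of the diet response were narrowest for Pdxk and Prosc.

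The likeness of each gene to the others was measured over the 60 libraries by Pearson's r of log2 CPM, after the mean of each of the 12 groups was subtracted. These are descriptions without a test, since the 3 libraries of a mouse share the animal and all genes of a library share its RNA quality and its composition. Pdxk was most like Mapk3 (r = 0.82), which encodes the kinase ERK1, Ptpn23 (0.82) and B4galnt1 (0.78), out of 10648 genes. The likeness of Pdxk and Mapk3 was present in each region, with r = 0.72 in the hippocampus, 0.93 in the striatum and 0.78 in the prefrontal cortex (20 libraries each).

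**Figure D4:**
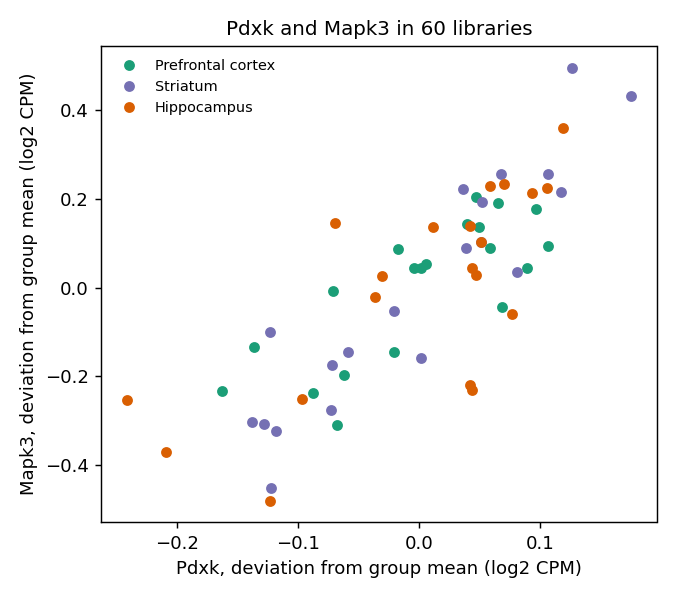
Deviation of each of the 60 libraries from the mean of its group in log2 CPM, Pdxk on the horizontal and Mapk3 on the vertical axis, coloured by region. The points rise together (r = 0.82), and libraries of all 3 regions lie along the same band.

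The deviations of Pdxk also moved with measures of the whole library. Their r was 0.71 with the first principal component of the group-centred values, which held 16.5% of the variance, -0.37 with RIN, and 0.62 with the mean of 5 microglial markers, and it was 0.04 with the library total. Mapk3, Ptpn23 and B4galnt1 had r of 0.81, 0.88 and 0.85 with that component and of -0.38, -0.34 and -0.36 with RIN. The part of RNA quality or of microglial content in the variation of Pdxk was not tested.

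The other four genes, whose counting errors were larger, had weaker nearest neighbours. The part of counting error in this was not tested. Alpl was most like Ampd3 (0.52), Igf2 (0.50) and Adgra3 (0.49), and its r was 0.49 with the mean of 5 markers of meningeal fibroblasts, a list that includes Igf2, 0.48 with that of 7 pericyte markers and 0.20 with that of 10 endothelial markers. Prosc was most like Dzip1 (0.59), Sfmbt2 (0.58) and Phf21a (0.55). Slc19a2 was most like Brinp3 (0.57), Zbtb1 (0.56) and Chic2 (0.55), and Slc19a3 was most like Tiparp (0.55), Dcun1d3 (0.55) and Tmem170b (0.52). With the mean of the 5 microglial markers the r was -0.45 for Slc19a2 and -0.39 for Slc19a3, for each the value farthest from 0 among the 8 marker lists compared. Slc19a3 had r of 0.35 with RIN and of -0.10 with the endothelial markers.

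Among themselves the 5 genes had weak correlations when the regions were pooled. The 10 pairwise values of r over the 60 libraries lay between -0.38, for Pdxk and Slc19a2, and 0.19, for Prosc and Alpl. Pdxk and Slc19a2 had r of -0.60 in the prefrontal cortex and -0.63 in the hippocampus, but 0.11 in the striatum. Over the 60 libraries, r with the first principal component was 0.71 for Pdxk and -0.40 for Slc19a2. With the mean of the microglial markers it was 0.62 and -0.45. The part of RNA quality, of composition or of counting error in the correlations among the 5 genes was not tested. The 2 thiamine transporters had r of -0.12. Alpl and Slc19a3 had r of -0.59 in the hippocampus, 0.40 in the striatum and 0.54 in the prefrontal cortex, so that their pooled value of 0.18 does not describe any 1 region.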

How the data were processed

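Per the labels, poly(A)-selected RNA was read as single 75-base reads. Per the submitters' processing notes, STAR 2.7.1a, HTSeq 0.9.1 and build mm10 were used; strand settings are not given in the sources used here. The authors deposited whole-number read counts per gene. The authors also deposited RPKM. Each count divided by its column total and a whole-number gene length, on the RPKM scale, gave these values. This held for all 18514 genes with at least 1 count, within a relative tolerance of 1e-06. All 60 value columns were matched to samples by name.

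Counts were tested with edgeR 4.0.16 (R 4.3.3; TMM factors; filterByExpr at its minimum count (10) and minimum total (15); quasi-likelihood F-test; a mean per group), per region on 20 libraries, and on 60 libraries for differences between regions. P-values were two-sided and adjusted over all genes tested (Benjamini-Hochberg, threshold 0.05). Intervals of 95% used the standard error from the F statistic. Each mouse is 1 replicate per region. The steps were tested on simulated data. Alternatives were DESeq2 1.42.0, limma 3.58.1 on log2(RPKM + 1) and log2(RPKM + 0.1), library totals without TMM, other filters, RIN as a covariate, only the compared groups, exact permutation tests, the mouse as a block and leaving out each mouse. Likeness used log2 CPM (prior count 2) among genes with a mean of at least 5 CPM. The regions of a mouse are paired by the animal, as the mouse number in the titles gives it; deviations of same-mouse libraries had a mean r of 0.047 (60 pairs) and those of different mice of a group -0.011 (240 pairs).

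The 5 genes are named in every comparison, genes of the lists if they passed in a diet comparison, up to 3 per list between regions, and the 3 most alike genes of each. The list of other vitamin B6 handling genes is not reported here. The genes and lists were chosen with earlier results of these data known. Intervals cover the spread between these mice, and counting errors cover counting only.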

Additional observations from a re-analysis of the deposited data

Results flagged for a closer look

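The 5 genes in 12 groups gave 60 sets of 5 values, and chance sets a value apart in about 1 of 20 such sets; here there were 2. Pdxk in the prefrontal cortex of WT mice on the lacking diet had 1 mouse (241) at 20.4 RPKM, far from the other four at 23.9 to 24.9 RPKM; the gap was 0.789 of the range of the group. Among KO mice on the lacking diet, Prosc in the hippocampus was high in 1 mouse (242) at 5.46 RPKM, far from the other four at 4.27 to 4.59 RPKM, a gap of 0.734 of the range. Leaving either mouse out brought no gene of the 5 past the threshold.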

How the results depend on the processing

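None of the 5 genes passed in a diet, interaction or genotype comparison under any alternative. Fold changes near 0 changed sign. Pdxk in KO prefrontal cortex (diet) was 0.0055 (limma, log2(RPKM + 1)), 0.0057 (limma, log2(RPKM + 0.1)), 0.0057 (library totals) and 0.0041 (RIN), and in WT striatum 0.022 (both limma fits), 0.023 (library totals) and 0.0017 (no filter). Alpl in WT hippocampus was 0.0019 and 0.011 (limma). Prosc in KO hippocampus was -0.00041 (library totals), and its interaction there -0.034 and -0.042 (limma) and -0.034 (library totals). With RIN, Slc19a3 in WT prefrontal cortex was -0.022, Prosc in KO striatum -0.032, and striatal interactions 0.014 (Pdxk), -0.027 (Slc19a2) and -0.125 (Slc19a3). KO minus WT in the prefrontal cortex was 0.0026 for Alpl (limma, log2(RPKM + 0.1)) and -0.0037 for Prosc (RIN). Prosc, hippocampus against striatum, was 0.052 (library totals) and 0.041 (limma), and Slc19a3, hippocampus against prefrontal cortex, lost its call at -0.174 (library totals) and -0.102 (limma). The cause was not tested. KO minus WT called 230 genes with DESeq2 and 189 with RIN in the prefrontal cortex (main 89), and 38 and 41 in the hippocampus (main 22). Of mouse means, Slc19a3 in KO mice was 0.00058 without the prefrontal cortex, Slc19a2 in KO mice 0.011 without the striatum, and Slc19a3 in WT mice -0.047 without the hippocampus.

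Leaving out each mouse in turn gave these ranges. Diet in WT mice, prefrontal cortex: Slc19a2 -0.147 to 0.013, Slc19a3 -0.101 to 0.164, Alpl -0.041 to 0.211. Diet in WT mice, striatum: Pdxk -0.034 to 0.033. Diet in WT mice, hippocampus: Alpl -0.152 to 0.122, Prosc -0.031 to 0.082, Slc19a2 -0.277 to 0.0040. Diet in KO mice, prefrontal cortex: Pdxk -0.034 to 0.019, Slc19a2 -0.032 to 0.115, and 0 to 1 genes passed in all, the 1 without mouse 368. Diet in KO mice, striatum: Prosc -0.0070 to 0.065. Diet in KO mice, hippocampus: Prosc -0.016 to 0.085, Slc19a2 -0.096 to 0.053, Slc19a3 -0.024 to 0.120. Diet averaged over genotypes: Slc19a2 -0.058 to 0.022 and Slc19a3 -0.098 to 0.034 in the prefrontal cortex, Alpl -0.021 to 0.095 in the striatum, Pdxk -0.010 to 0.033 in the hippocampus. Interaction: Slc19a3 -0.259 to 0.0058 in the prefrontal cortex and -0.090 to 0.184 in the striatum, Prosc -0.036 to 0.079 and Slc19a2 -0.040 to 0.241 in the hippocampus. KO minus WT: in the prefrontal cortex Alpl -0.096 to 0.042, Prosc -0.0090 to 0.045, Pdxk -0.0050 to 0.028 and 46 to 390 genes called, and in the hippocampus Slc19a2 -0.0066 to 0.135. Slc19a2, hippocampus against prefrontal cortex: 0.153 to 0.214.

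With the mouse as a block, all calls between regions stood (Slc19a2, hippocampus against prefrontal cortex, 0.185). No paired analysis was possible for diet or genotype because those groups share no mouse numbers. The diet intervals of Alpl, Slc19a2 and Slc19a3 were wider than those of Pdxk and Prosc and reach larger changes. Alpl and Slc19a3 had the fewest reads. The part of read numbers or of the spread between mice in these widths was not tested. TMM against library totals moved the median of all genes by less than 0.1.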
